A study of Rattus norvegicus with 6 samples.

Results

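CpG methylation in the hippocampus of Sprague-Dawley rats was read by reduced representation bisulfite sequencing (RRBS) in 1 library from B[a]P-treated tissue and 1 from its control. Benzo[a]pyrene, written B[a]P, is an aromatic hydrocarbon of smoke and charred food. It was dissolved in corn oil and given daily by oral gavage at 2.0 mg/kg, while the control received corn oil alone. The labels gave both RRBS libraries an age of 7 weeks and the same tissue and strain, without a number of animals, and the submitters' text speaks of a treated and a control rat. Of 5628789 cytosines listed with the same context in both libraries, 1215420 were CpG sites, and the 1002450 of them with 20 or more reads in each library (82.5%) are the sites described here. Each strand of a CpG counts as a site of its own. With 1 library per group no difference has a replicate check: each value compares these libraries and not the conditions. Intervals cover counting error only, since reads without molecular identifiers are not independent molecules. The tables name no genes, so the labelled tissue could not be checked against defining markers.

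In mammals DNA methylation sits mainly on the cytosine of CpG dinucleotides. Most CpGs of the genome are methylated, whereas CpG islands, the CpG-rich stretches that hold many promoters, are usually kept free of it. Bisulfite turns unmethylated cytosine into uracil, read as T, and leaves methylated cytosine as C. RRBS cuts DNA with an enzyme that recognises CCGG and sequences the short fragments, which enriches CpG islands. B[a]P activates the aryl hydrocarbon receptor, a transcription factor encoded by Ahr, and its metabolites form adducts with DNA.

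The range of methylation in these libraries is shown by 5 promoters, printed 5′ to 3′ along the gene as the 250 bases before the RefSeq start (assembly GRCr8). Capitals mark measured CpG cytosines, as C where the cytosine lies on the printed strand and as G where it lies on the opposite strand. Ahr was chosen as the receptor of B[a]P, Ddx4 as a methylated promoter, Plagl1 as an intermediate one, and Espnl and Dsc3 as the named genes with the largest difference in each direction.
Ahr promoter: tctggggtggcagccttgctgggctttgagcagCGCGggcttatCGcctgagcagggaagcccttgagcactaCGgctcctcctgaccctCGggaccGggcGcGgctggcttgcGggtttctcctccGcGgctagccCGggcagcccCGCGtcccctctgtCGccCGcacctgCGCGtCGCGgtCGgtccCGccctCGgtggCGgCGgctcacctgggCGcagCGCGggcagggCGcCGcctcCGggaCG
Ddx4 promoter: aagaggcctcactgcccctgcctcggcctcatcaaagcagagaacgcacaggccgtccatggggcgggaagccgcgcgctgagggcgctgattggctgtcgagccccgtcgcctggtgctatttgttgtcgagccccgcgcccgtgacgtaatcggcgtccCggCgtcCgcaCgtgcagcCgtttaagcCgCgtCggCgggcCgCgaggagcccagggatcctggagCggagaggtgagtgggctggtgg
Plagl1 promoter: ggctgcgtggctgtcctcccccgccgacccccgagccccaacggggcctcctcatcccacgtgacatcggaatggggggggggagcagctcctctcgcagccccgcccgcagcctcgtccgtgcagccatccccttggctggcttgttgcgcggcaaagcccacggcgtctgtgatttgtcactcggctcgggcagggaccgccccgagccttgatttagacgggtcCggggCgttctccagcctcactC
Espnl promoter: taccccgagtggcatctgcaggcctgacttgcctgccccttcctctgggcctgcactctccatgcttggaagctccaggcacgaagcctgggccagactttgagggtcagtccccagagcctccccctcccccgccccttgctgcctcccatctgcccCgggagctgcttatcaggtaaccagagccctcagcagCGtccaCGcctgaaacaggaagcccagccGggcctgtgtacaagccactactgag
Dsc3 promoter: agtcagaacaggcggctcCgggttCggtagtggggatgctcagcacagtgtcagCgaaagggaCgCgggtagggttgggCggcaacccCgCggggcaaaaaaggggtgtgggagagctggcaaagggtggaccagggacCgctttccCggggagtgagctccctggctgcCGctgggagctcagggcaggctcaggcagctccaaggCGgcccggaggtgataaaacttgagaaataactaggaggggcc
The 58 measured upstream sites of Ahr averaged 0.744% methylation in the B[a]P library and 0.831% in the control. The 12 upstream sites of Ddx4, which encodes a germ cell RNA helicase, averaged 93.5% and 93.1%. The 3 upstream sites of Plagl1, an imprinted zinc finger gene, read 52.4%, 45.2% and 45.2% in the B[a]P library against 36.7%, 35.5% and 40.6% in the control. These 3 sites rested on 42 reads each in the B[a]P library and 30 to 32 in the control. The sequences thus span an almost unmethylated CpG island, an almost fully methylated one and a stretch near the middle of the scale, and of these 3 Plagl1 differed by several points between the libraries.

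Coverage came first, because it sets the precision of each level. Over the sites described, the B[a]P library held 96.1 M reads and the control 126 M, with medians of 69 and 92 reads per site. The central 90% of sites lay between 25 and 240 reads in the B[a]P library and between 25 and 319 in the control. A small number of sites were very deep: 805 sites exceeded 1000 reads in the B[a]P library and took 3.87% of its reads, and 975 did so in the control and took 4.76%. The deepest site of each library, both mitochondrial, had 143711 reads in the B[a]P library and 162329 in the control. The control was deeper at 61.8% of sites. Across sites the log coverages correlated with Pearson's r = 0.66 (n = 1002450 sites, which share fragments within a library). Relative to its library's total, a site's share of reads in the B[a]P library ranged from 0.423 to 2.87 times its share in the control between the 5th and 95th percentiles.

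Methylation levels lay mostly at both ends of the scale, and their distributions over sites nearly coincided. The median level was 1.22% in the B[a]P library and 1.23% in the control. Sites under 10% made up 67.9% and 68.3% of all sites, and sites above 90% made up 11.9% and 11.6%. Only 6.79% and 6.76% lay between 30 and 70%. A level of exactly 0 was read at 41.1% of sites in the B[a]P library and 36.3% in the control, and the B[a]P library had fewer reads per site. The part of coverage in this difference was not tested. Outside CpG, levels were below 1% in both libraries, at 0.66% and 0.71% for CHG and 0.69% and 0.79% for CHH cytosines. Counted by reads rather than by sites, the distributions separated: 73.0% of reads in the B[a]P library and 76.0% in the control came from sites under 10%, while 9.69% and 7.89% came from sites above 90%.

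**Figure D1:**
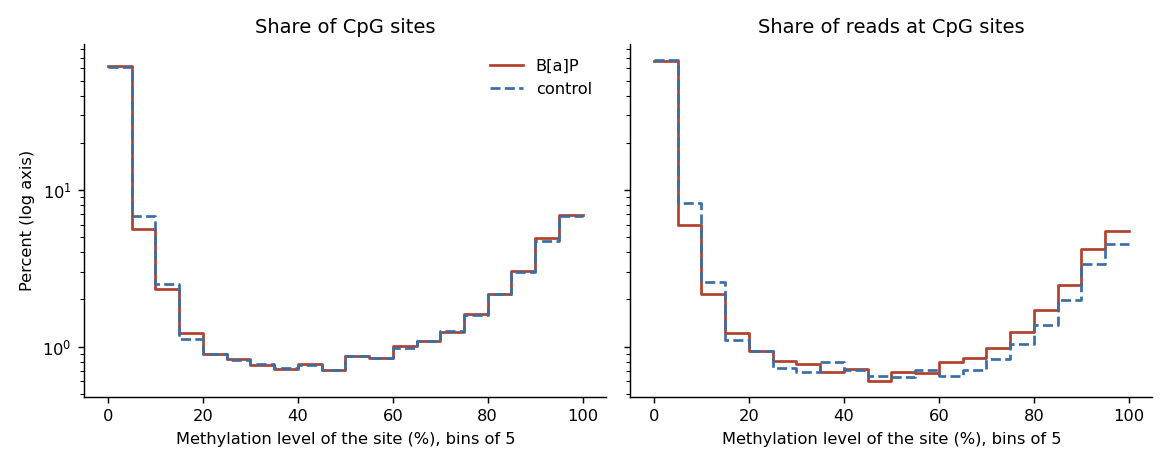
Share of CpG sites (left) and of reads at those sites (right), as percent on a log axis, by methylation level in bins of 5 percentage points, for the B[a]P library (solid line) and the control library (dashed line). The site curves nearly coincide, whereas the read curve of the B[a]P library lies above that of the control at levels of 60% and more.

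Site by site the libraries were close. Pearson's r between the levels was 0.99 and Spearman's rho 0.857 over the 1002450 sites, which share libraries and neighbouring sites share reads, so the values are descriptions. The difference was within 5 points at 83.9% of sites and within 10 at 94.2%. Both libraries put 89.7% of sites in the same of 5 level classes, and both read exactly 0 at 27.6%. Of the sites whose mean level lay between 10 and 90% there were 200418, and over these r was 0.931. The SD of the site difference was 5.13 points, against 4.25 points from binomial counting of the reads alone, a variance ratio of 1.46.

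The spread was then read by level class. Classes were set by the mean of both levels, so a site under 10% or at 90% and over could differ by at most 20 points, and every larger difference fell in the classes between. The contrast of the outer with the middle classes is in part set by this choice. Under 10% the SD was 2.04 points against 1.98 from counting, and at 90% and over it was 4.31 against 4.17. From 30 to 70% the SD was 12.6 against 9.51, a variance ratio of 1.81, with 1.62 from 10 to 30% and 1.31 from 70 to 90%. The ratio rose with the smaller of the 2 coverages, from 1.3 at 20 to 29 reads to 3.74 at 200 reads and over. In the class from 30 to 70% it rose from 1.53 to 6.84, and there the SD was 15.2 points at the lowest coverage, 9.77 from 100 to under 200 reads and 10.5 at 200 and over. At 200 reads and over the outer classes also exceeded counting, with ratios of 1.31 under 10% and 1.32 at 90% and over. From 30 to 70%, the SD thus fell no lower than about 10 points with more reads. At 200 reads and over in that class, 53.7% of sites were within 5 points and 85.4% within 10. A further 4.25% differed by 25 points or more.

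**Figure D2:**
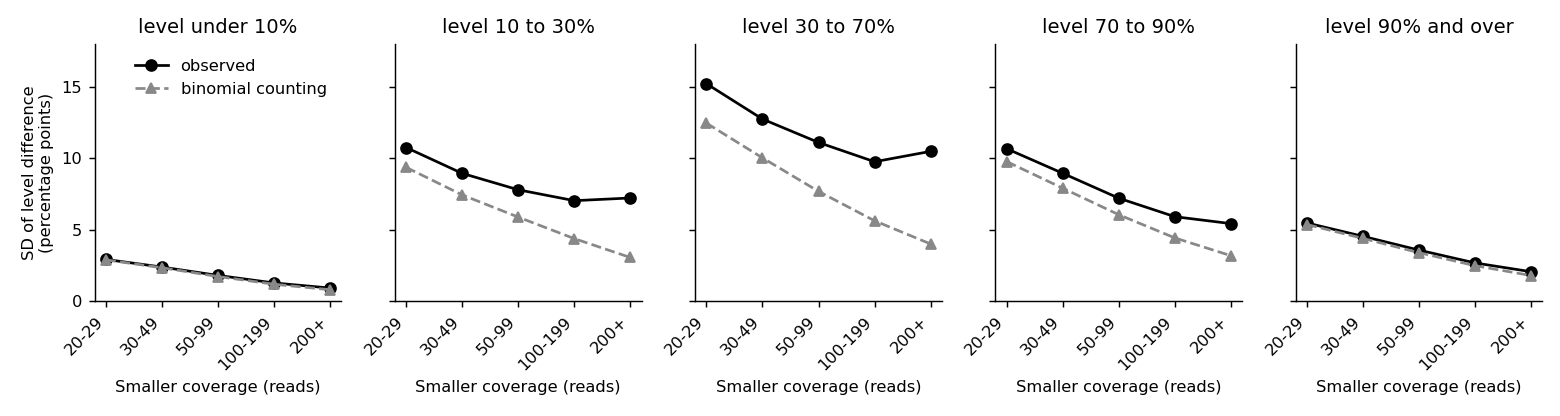
SD of the level difference between the libraries, in percentage points, by the smaller coverage of a site, in 5 panels by mean level, as observed (circles) and as binomial counting gives (triangles). The lines nearly meet under 10% and at 90% and over, and part in the middle panel, where the observed SD is 10.5 points against 4.02 at 200 reads and over.

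Neighbouring sites differed together. Among sites with a mean level of 10 to 90%, for a site and the next one 2 to 10 bp away the differences correlated with r = 0.472 (37614 pairs), and 0.371 at 11 to 50 bp, 0.259 at 51 to 200 bp and 0.0408 beyond 1000 bp, up to 10000 bp, as descriptions of sites that share reads at short distance. At 1 bp, the distance of the opposite strands of a CpG, r was lower, at 0.306 (27632 pairs). For 31648 CpGs with both strands measured and a mean level of 10 to 90%, the strands of the same library differed with an SD of 11.8 points (B[a]P) and 11.6 points (control). The same strand differed between libraries with an SD of 10.4 and 10.2 points for the first and second strand. By these SDs the strands of a CpG were no closer to each other than the libraries were. Counting error was not computed for these pairs, so the part of either SD beyond counting is not known.

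The mean of sites was 23.16% in the B[a]P library and 22.88% in the control, a gap of 0.278 points. The direction was not the same over the scale. Sites under 10% averaged 1.27% in the B[a]P library against 1.37% in the control. Sites from 10 to 30% averaged 18.5% against 16.6%, those from 30 to 70% 52.7% against 50.2%, and those from 70 to 90% 82.4% against 81.5%. At 90% and over the means were 95.3% and 95.2%. From 30 to 70%, the B[a]P library was the higher one at 60.05% of sites and the lower one at 39.6%. The gap in that class was 2.52 points at 20 to 29 reads, 2.29 from 100 to under 200 and 0.666 at 200 and over. It also depended on CpG density, counted as listed CpG cytosines within 50 bp: from 30 to 70% the means were 53.9% against 50.6% with 1 to 2 such cytosines and 45.5% against 48.1% with 21 and over. In this level class the B[a]P library averaged higher in every density class up to 17 to 20 cytosines, where the gap was 0.875 points. It averaged lower only with 21 and over. Those were 2116 sites, of which 107 were called lower and 6 higher by the site tests given below. How far clusters of such lower sites set this mean was not tested.

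By chromosome, the mean of sites varied more between chromosomes than between libraries. Among the 20 numbered chromosomes it ran from 20.7% on chromosome 10 to 29.5% on chromosome 12 in the B[a]P library, and from 20.4% to 29.1% on the same chromosomes in the control. Chromosomes 12, 20 and 13 stood highest, with 58.8%, 60.5% and 62.4% of their sites under 10%, the smallest shares among the numbered chromosomes. All 20 had a higher mean in the B[a]P library, by 0.16 points (chromosome 1) to 0.447 points (chromosome 20). On the X chromosome the means were 23.7% in both, a difference of -0.0246 points over 14233 sites. The 402 mitochondrial sites averaged 0.453% and 0.495%, near the levels outside CpG. Sites are not replicates of a library, so the shared direction on 20 chromosomes comes from a single pair of libraries.

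**Figure D3:**
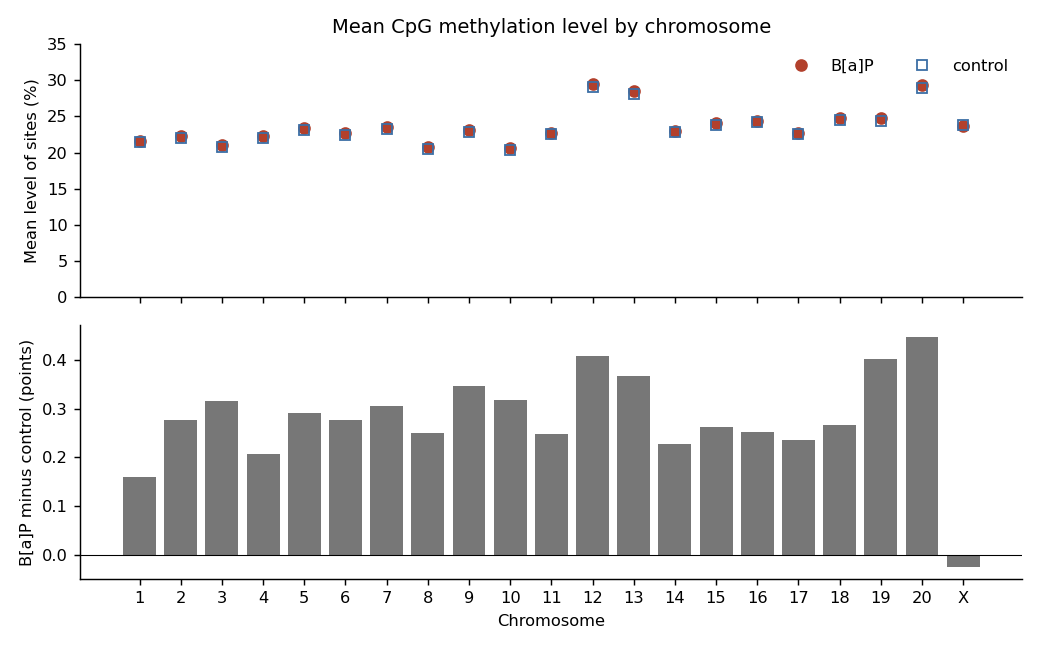
Mean methylation level of CpG sites by chromosome in percent (top; filled circles B[a]P, open squares control) and the B[a]P minus control difference in percentage points (bottom). The libraries overlap on every chromosome at the scale of the levels, and the bars run from 0.16 on chromosome 1 to 0.447 on chromosome 20 and below 0 on X.

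Weighting by reads changed the gap. The read-weighted level, all methylated reads over all reads, was 19.15% in the B[a]P library (95% Wilson interval 19.146 to 19.162) and 16.51% in the control (16.501 to 16.514), a gap of 2.65 points against 0.278 for the mean of sites. Splitting it exactly into a part from differences in level, at the mean of both libraries' read shares, and a part from differences in read share, at the mean of both levels, gave -0.0132 points for level and 2.66 points for coverage. With the B[a]P coverage used for both libraries, the weighted levels were 19.15% and 19.11%. With the control coverage for both they were 16.44% and 16.51%, and with the smaller coverage for both 18.01% and 18.001%. With the B[a]P coverage capped at 100 reads and used for both, they were 21.4% and 21.2%, a gap of 0.242 points, near that of the mean of sites. Capping each library's own coverage at 100 reads left a gap of 1.71 points. The gap was thus 1.71 or 2.65 points when each library was weighted by its own reads, and lay between -0.0708 and 0.242 points under the 4 shared weightings.

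The coverage part came from methylated sites holding more of the B[a]P library's reads. Sites under 10% took 73.2% of the reads in the B[a]P library and 76.2% in the control, those from 70 to 90% took 6.44% and 5.27%, and those at 90% and over 9.49% and 7.91%. Differences in share between the 5 level classes came to 100.5% of the coverage part (2.67 points), as the classes were themselves set by level. Classes that used no level were then compared. CpG density classes held 74.8% of it, CCGG spacing classes 27.0%, and chromosomes -0.103%. The spacing classes are coarse: 61.4% of sites lay in a single class, over 400 bp or with no listed motif. Most of the coverage part thus lay between CpG density classes, and almost none between chromosomes. The density count uses only cytosines listed with 10 or more reads in a library, so it depends in part on coverage.

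Sparse CpGs were methylated and took more of the B[a]P reads. Sites with 1 to 2 listed CpG cytosines within 50 bp averaged 66.8% and 65.4% methylation, had medians of 62 and 61 reads, and a median read share 1.37 times that in the control. Sites with 21 and over averaged 2.09% and 2.17%, had medians of 82 and 122 reads, and a median share 0.868 times that in the control. The order was unbroken from 1 to 2 up to 17 to 20 cytosines, where the share was 0.864 times. It was present among sites under 10% alone, from 1.45 times at the lowest density to 0.869 times at the highest. Mean levels there also fell with density, from 4.12% in both libraries to 0.863% (B[a]P) and 0.951% (control). At 90% and over the shares were 1.18 to 1.36 times those in the control in every density class, without a steady order. The share also varied with level at a fixed density. With 21 and over cytosines it was 0.869 times under 10%, 0.644 from 10 to 30% and 1.05 from 30 to 70%. From 70 to 90% it was 1.08 times there, and at 90% and over 1.26 times. The share also differed by the spacing of CCGG motifs with all their cytosines listed, without a steady order. This spacing is not a measured fragment length. Sites between CCGG motifs 4 to 60 bp apart had a median share 0.74 times that in the control, with medians of 68 and 116 reads. With wider spacing it was 1.04 times up to 100 bp, 1.11 up to 150 bp, 0.928 up to 220 bp, 0.967 up to 400 bp and 1.11 beyond that or with no listed motif, and within the motif itself it was 0.812 times.

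**Figure D4:**
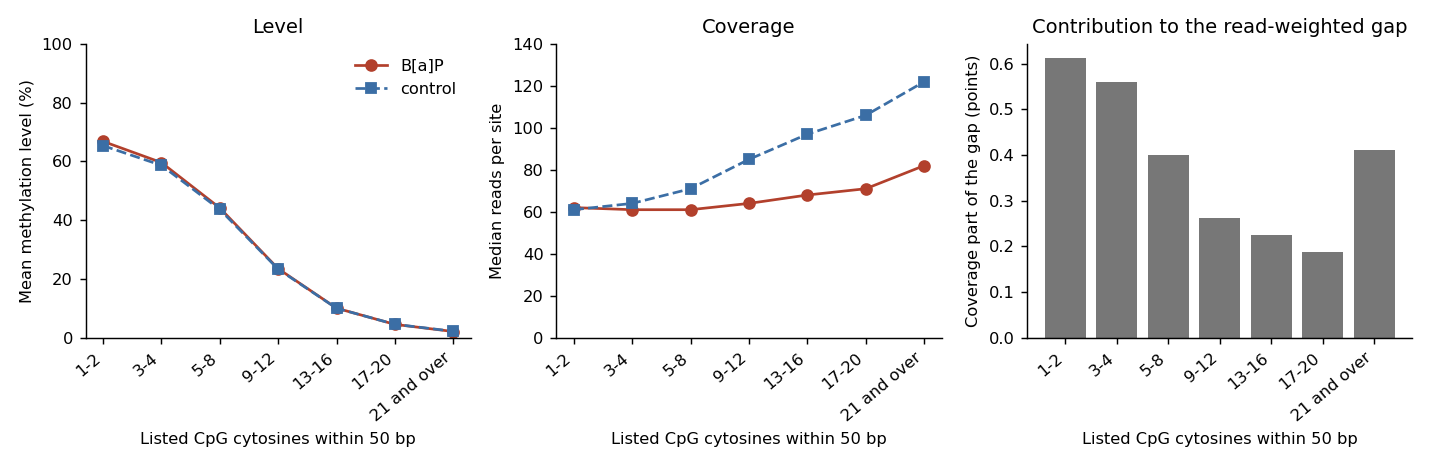
Mean methylation level in percent (left), median reads per site (middle) and the coverage part of the read-weighted gap in percentage points (right), by number of listed CpG cytosines within 50 bp, for the B[a]P library (circles) and the control library (squares). The levels overlap and fall from 66.8% to 2.09% in the B[a]P library, while the control gains coverage with density, from a median of 61 to 122 reads.

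Some single regions weighed on the total. Of 98646 windows of 1000 bp, 55.8% had a positive coverage part. The largest, 1:13499000-13499999, gave 0.0394 points and had medians of 1982 and 7620 reads over 99 sites with means of 9.46% and 11.2%. The most negative, the mitochondrial window M:12000-12999, gave -0.0523 points and held 0.631% of the B[a]P reads and 0.309% of the control reads. The level part depended on few regions. The 1141 sites over 1000 reads in either library contributed -0.196 points to it, and the others 0.183 points. The 3 windows with the most negative level part were 1:13504000-13504999 (145 sites, means 18.8% and 32.1%), 14:46834000-46834999 (29 sites, 33.3% and 57.8%) and 1:13503000-13503999 (91 sites, 12.8% and 40.6%). The most positive was 19:67048000-67048999, with 91 sites at 21.02% and 9.82%. Leaving out the 12 windows that held 10 or more called sites, a choice made after seeing the data, moved the level part from -0.0132 to 0.2 points, and the read-weighted gap to 2.91. The near-zero level part was thus a sum of parts of opposite sign, negative in a few deep regions and positive in sum over the other sites. Sites under 10% gave -0.0617 points, negative in every coverage class.

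Single sites were compared with 2-sided Fisher's exact tests on the read counts and the Benjamini-Hochberg adjustment over all 1002450 sites. An adjusted p under 0.05 with a difference of 25 points or more called 772 sites higher in the B[a]P library (0.077% of those tested) and 881 lower (0.0879%). Without the size rule 1030 were higher and 1203 lower at an adjusted p under 0.05, and 26470 sites had an unadjusted p under 0.05. Called sites lay in sparser sequence than all sites, with a median of 7 against 14 CpG cytosines within 50 bp, and at a median smaller coverage of 62 against 55 reads. The rule of 25 points lets none of the 686074 sites with a mean level under 10% be called. Of those, 271054 had 21 or more CpG cytosines within 50 bp, so the sparser median is in part set by the rule. Chromosome 1, with 11.5% of all sites, held 275 of the lower and 71 of the higher calls. These were 0.299% of its sites, against 0.165% called over all sites. Many of its lower calls lay in the clusters given in the next paragraph. Leaving out the same 12 windows left 705 higher and 644 lower calls.

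Calls were clustered. They fell in 1048 windows, of which 62 held 3 or more and together 499 of the calls. In 1:13503000-13503999 there were 49, all lower, and the next 3 windows, up to 1:13506999, held 39, 26 and 30, all lower. In 14:47850000-47850999 all 39 called sites were higher, with means of 47.6% and 8.14%. In 8:76675000-76675999 all 15 were higher, with means of 39.3% and 1.61%, and the nearest placed promoter, of Bnip2, which encodes an interactor of BCL2 family proteins, was 345 bp from the window's centre. That promoter itself, partly inside the window, read 2.26% against 2.73% over 10 sites and held no called site. No genome annotation of rn5 was used, so exons, introns and UTRs were not assigned to sites.

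The 3 deepest nuclear sites by smaller coverage lay together on chromosome 14 (rn5). At position 46834603, 6569 of 21058 reads were methylated in the B[a]P library (31.2%, 95% Wilson interval 30.6 to 31.8) and 12007 of 25224 in the control (47.6%, 47.0 to 48.2). At position 46834650 the levels were 31.3% and 48.6%, and at 46834669 they were 23.8% and 36.2%. All 3 were lower in the B[a]P library by less than 25 points, so none was called.

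At the largest called differences, all or nearly all reads were methylated in a single library and none in the other. Whether the DNA sequence itself differed between the libraries at these positions was not tested. At position 272966253 of chromosome 2, 52 of 52 reads were methylated in the B[a]P library (Wilson interval 93.1 to 100%) and 0 of 72 in the control, which allows up to 4.17%. At X position 92273576 the counts were 68 of 69 and 0 of 54, the latter allowing up to 5.56%. In the other direction, position 169312582 of chromosome 3 had 0 of 84 against 61 of 62 methylated reads, and position 12536457 of chromosome 20 had 0 of 136 against 56 of 57. On chromosome 2 the opposite directions stood side by side: position 77724199 had 95 of 96 methylated reads against 0 of 79, and position 77724197, 2 bases away, had 0 of 96 against 78 of 79. In all, 144 sites differed by more than 80 points, 82 of them higher and 62 lower in the B[a]P library.

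Promoters of RefSeq genes were then located on the tables. A 300 bp window (250 bases before and 50 after the start) was placed where its pattern of CpG, CHG and CHH cytosines matched the listed contexts without exception and at a single place, over 50 or more letters, on the annotated chromosome. This gave 4741 genes with 5 or more sites, with a median of 25 sites and 134845 sites in all, where a site shared by neighbouring promoters counts in each. The method finds CpG-dense, well covered promoters, so it is not a sample of all genes. The mean level over promoters was 2.51% in the B[a]P library and 2.57% in the control, 4627 (97.6%) were under 10%, 70 were from 10 to 70% and 44 at 70% or more. The difference was within 2 points for 97.8%. At 10 points or more, 2 promoters were higher (0.0422%) and 2 lower (0.0422%) in the B[a]P library.

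Those 4 promoters lay at intermediate levels. LOC134483856 read 33.2% against 17.6% over 10 sites. Espnl, an espin-like actin-bundling protein gene, read 29.01% against 18.04%, and all 6 of its sites were on the higher side in the B[a]P library. Dsc3, which encodes a desmosomal cadherin, read 42.5% against 56.0% with 12 of 14 sites lower. Plvap, a gene of endothelial cells, read 30.7% against 40.9% with 10 of 10 lower. None of the 4 held a called site. Sites of a promoter share reads, so the counts of sites on a side are not counts of separate observations. In the Dsc3 promoter the first 9 sites from the 5′ end were lower by 10 points or more each. They rested on 195 to 197 reads in the B[a]P library and 148 to 153 in the control. Beyond them, on fewer reads, the direction was mixed. The sites at bases 148 and 209 read 42.5% and 39.3% in the B[a]P library against 41.8% and 36.96% in the control. Those at bases 171, 172 and 208 were lower, at 32.05%, 42.9% and 37.2% against 51.03%, 45.7% and 46.2%.

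**Figure D5:**
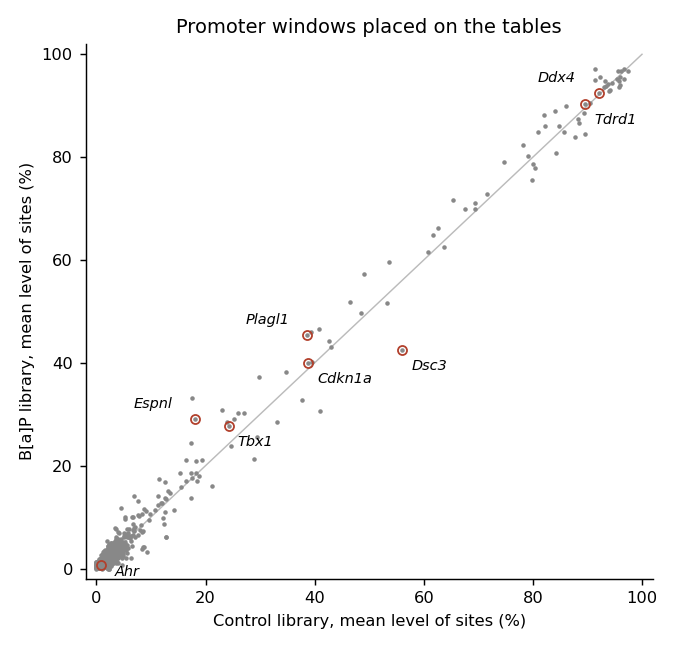
Mean methylation level of each of 4741 placed promoters in the control library (horizontal axis, percent) and in the B[a]P library (vertical axis, percent), with the line of equal levels and 8 genes named. Most promoters sit at the lower left under 10%, and Espnl and Dsc3 lie farthest from the line among the named genes.

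The gene lists below were chosen with results of these data known, and describe only their placed members. Of 25 genes of the aryl hydrocarbon receptor pathway and xenobiotic metabolism, 8 were measured, and all 8 were under 10% in both libraries, as were 97.6% of all promoters. Ahr read 0.685% and 0.78% over its 68 sites. Tiparp, an ADP-ribosyltransferase gene that the receptor induces, read 1.17% and 1.16%. Gstp1, a glutathione S-transferase gene, had the largest difference of the list, at 2.06% against 0.771%. Keap1, the sensor that holds back the antioxidant factor NRF2, read 2.5% and 2.69%. The receptor's core recognition motif GCGTG, searched on both strands, contains a CpG that can be methylated. It occurred in 29.7% of all 300 bp RefSeq windows and in 58.8% of those measured. Its 4780 measured CpG cytosines, in 1967 promoters, averaged 1.15% and 1.13%. The other 130065 CpG cytosines, from all 4741 promoters with and without the motif, averaged 1.67% and 1.74%. The comparison is thus not within promoters. The Ahr window held no such motif, and the Espnl window held 1, whose 2 cytosines averaged 31.0% in the B[a]P library and 15.3% in the control.

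Of all placed promoters 97.6% were under 10%, so low levels in the lists that follow are not particular to them. Among neuronal and synaptic genes 14 of 69 were measured, all under 10%, with differences from -0.942 to 1.7 points. Gabbr2, a subunit of the metabotropic GABA receptor, read 1.15% and 1.13% over 83 sites, and Reln, the extracellular glycoprotein reelin, 0.253% and 0.683%. Neurod2, a transcription factor of excitatory neurons, was highest at 4.91% and 3.22%. Immediate early genes, induced by neuronal activity, were all under 10% in 8 of 8 measured. Egr1 read 1.38% and 1.75%, and Nr4a1 0.547% and 1.31%. Of the 4 glial genes Cspg4, a proteoglycan gene of oligodendrocyte precursors, read 9.48% and 9.57%. DNA methylation genes were low in 6 of 6, among them Tet3, which oxidises methylcytosine, at 0.908% and 0.765%, and Uhrf1, which binds hemimethylated DNA, at 1.98% and 2.03%. All 11 ribosomal protein promoters were under 10%, and so was the choroid plexus list's 1 measured gene, Msx1, at 2.5% and 2.08%.

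Methylated promoters were found in other lists. Of 4 germline genes, Ddx4 read 92.5% and 92.2% over 13 sites and Tdrd1, a tudor domain protein of the piRNA pathway, 90.3% and 89.6%, while Ddx43 and Tdrd6 were under 10%. Of 10 imprinted genes 9 were under 10%. Plagl1 read 45.4% and 38.6%, with all 8 sites on the higher side in the B[a]P library at medians of 42 and 32 reads. Neighbouring sites share reads, so the 8 sites are not separate observations. Igf2r read 8.55% and 8.16%. Of 11 genes of the p53 response and DNA repair, Cdkn1a, the cell cycle inhibitor p21, read 39.995% and 38.8% and the other 10 were under 10%. Of 18 homeobox and developmental genes, Tbx1 read 27.7% and 24.2%, over a range of 2.08 to 60% between its sites in the B[a]P library. No promoter of these lists held a called site, where 5 of the 4741 did. Ddx4 and Cdkn1a thus kept their levels within 2 points between the libraries. Plagl1 differed by 6.71 points on few reads, and whether this exceeded counting error was not tested.

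Promoter coverage varied with base composition, whereas the single sites were classed by CpG density and not by base composition. Promoters under 50% G and C had a median read share 1.23 times that in the control (52 promoters), with medians of 98.5 and 100.5 reads, and those at 75% and over 0.822 times (575 promoters), with medians of 66 and 110 reads. In between, the share was 1.01 times from 50 to under 55% and 1.05 times from 55 to under 60%, and then fell with each class. Among promoters under 10% methylation alone, the lowest and highest classes had shares of 1.24 and 0.822 times. Promoter levels fell slightly with base composition in both libraries, from medians of 1.29% and 1.58% to 0.969% and 1.05%.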

How the data were processed

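RRBS libraries of hippocampal DNA came from B[a]P and control tissue, by their titles, 1 each. The tables as deposited hold 1 line per cytosine: per the file headers, a count of methylated reads, a count of unmethylated reads, a level in percent and a context letter. Every deposited site had 10 reads or more. Builds rn5 and rn6 and bcl2fastq are named in the submitters' processing notes. Aligner, caller and duplicate removal, each of which could change a level, are not given in the sources used here. Positions on chromosome 1 reach 290084085, past its end in rn6, so they are given as rn5, as printed. Whether they count from 0 or 1 is not known, and no strand is given.

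Tables were joined on chromosome and start, after 422 positions whose context differed were left out, and the level was recomputed from the counts. CpG sites with 20 or more reads in both were tested with 2-sided Fisher's exact tests and the Benjamini-Hochberg adjustment. The count of a 0 level was bounded by 3 reads of the total. Tests, the gap split and promoter placement were checked on simulated data. The members, gene lists and printed promoters were chosen with earlier results of these data known, and promoter placement was added after the tables were seen. Sites and windows were named by rule: the 3 deepest nuclear sites, the 3 largest called differences in each direction at 50 or more reads, and the windows of the largest contributions. Promoters named beyond the lists are those with the largest differences. Of 27457 RefSeq genes, 5035 had a window placed, and 1 window per gene, that with the most sites, was used. Python 3.11.15, numpy 2.4.6, pandas 2.3.3, scipy 1.17.1 and numba 0.67.0 were used. Alternatives were other read minimums, deep sites left out, numbered chromosomes only, strands summed, balanced coverages, another size or correction, and clustered calls left out. The RNA tables were not used here.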

Additional observations from a re-analysis of the deposited data

How the results depend on the processing

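The mean of sites gap, the read-weighted gap and its coverage part stayed positive under every alternative, and 17 of 46 values stayed within counting error or 1.5 times. The level part, -0.0132 points, did not keep its sign: it was 0.00494 with 10 reads, -0.103 with 50, 0.192 without the deepest sites, -0.0114 on numbered chromosomes, -0.0168 with strands summed, 0.0327 with balanced coverages and 0.2 without clustered calls. The cause was not tested. With 10 reads in both libraries the mean of sites gap was 0.302 points, the read-weighted gap 3.05, the coverage part 3.04 and the SD of the site difference 6.24. With 50 reads they were 0.207, 1.86, 1.959 and 3.86, with 450 higher and 564 lower calls among 556174 sites. Without the deepest sites, which left 1001183, the read-weighted gap was 2.91 and the coverage part 2.71. On numbered chromosomes only they were 2.71 and 2.72. With strands summed the 4 values were 0.348, 2.67, 2.69 and 5.23. For sites whose coverages, relative to the library medians, were within 1.5-fold they were 0.326, 0.253, 0.22 and 5.05, with 324 higher and 373 lower calls among 403196 sites. Bonferroni left 445 higher and 592 lower calls. Without the 12 windows of clustered calls, added after seeing the data, they were 0.288, 2.91, 2.71 and 5.08, and higher calls outnumbered lower ones (705 against 644), where lower ones did so with them (772 against 881). The read-weighted gap was smallest where coverages were balanced, a selection that by itself keeps the read shares of the libraries close. No paired analysis was possible because each group has 1 library. Coverage limits single sites: 4736 sites differed by 25 points or more, and 3083 of them did not reach an adjusted p under 0.05 by Fisher's exact test.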
